A study of Mus musculus with 8 samples.

Results

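The genes examined were the 10 genes whose products spend serine on lipids or act directly after that step, namely Sptlc1, Sptlc2, Sptssa, Kdsr, Cers2, Cers5, Cers6, Degs1, Ptdss1 and Ptdss2. They were chosen by symbol, all 10 were present among the 18635 genes of the table, and all 10 passed the filter on low values that left 13629 genes to test. RNA was sequenced from tumor-educated macrophages (TEMs), that is, bone marrow-derived macrophages (BMDMs) given tumor-conditioned medium (TCM) for 24 h. The medium came from AE17, a mouse mesothelioma cell line. The 4 control samples were Phgdh fl/fl TEMs and the other 4 were Phgdh fl/fl Cx3cr1-Cre TEMs. Both genotypes carried the floxed Phgdh alleles, were C57BL/6 littermates aged 6 to 8 weeks and received the same medium. Cre was expressed from 1 Cx3cr1 allele, so the Cre mice also differed from the controls at that locus. Deletion was limited to cells in which Cx3cr1 was or had been expressed. The 8 libraries were called biological replicates, with no statement that each came from its own animal, and p-values measure the spread between these samples.

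Serine is the amino acid that enters sphingolipids. Serine palmitoyltransferase (SPT), built from SPTLC1, a catalytic SPTLC2 or SPTLC3 chain and a small subunit such as SPTSSA, joins serine to palmitoyl-CoA at the endoplasmic reticulum. KDSR reduces the product to sphinganine, ceramide synthases attach a fatty acid whose length depends on the isozyme, and DEGS1 adds the double bond that makes ceramide, the parent of sphingomyelin and glycosphingolipids. Phosphatidylserine synthases place serine on existing phospholipids, PTDSS1 by exchanging the choline of phosphatidylcholine and PTDSS2 the ethanolamine of phosphatidylethanolamine. Phosphatidylserine is known in macrophages and their prey for the signal it gives when it is exposed on the cell surface. PHGDH catalyses the first step of the synthesis of serine from glucose, so the comparison asks whether transcripts of serine-using lipid synthesis differ where that step is deleted.

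For the 5 genes whose genotypes did not overlap in any sample, the 250 bases before a RefSeq transcription start are shown, because these promoters belong to the genes that the results turn on. The windows of Degs1 and Cers2 lie inside the gene spans given below. Those spans come from GENCODE, where both genes begin further upstream than the RefSeq start used. They were taken from RefSeq on GRCm38.p6 and are given 5′ to 3′ on the gene's strand. Capitals mark matches on either strand to the CCAAT box (CCAAT), the GC box (GGGCGG) and the E-box (CACGTG). The windows are chr1:182282196-182282445 (minus strand) for Degs1, chr3:95314940-95315189 (plus strand) for the first of the 2 Cers2 starts, chr2:68861191-68861440 (plus strand) for Cers6, chr12:87388356-87388605 (minus strand) for Sptlc2 and chr12:54656573-54656822 (minus strand) for Sptssa.
Degs1 promoter: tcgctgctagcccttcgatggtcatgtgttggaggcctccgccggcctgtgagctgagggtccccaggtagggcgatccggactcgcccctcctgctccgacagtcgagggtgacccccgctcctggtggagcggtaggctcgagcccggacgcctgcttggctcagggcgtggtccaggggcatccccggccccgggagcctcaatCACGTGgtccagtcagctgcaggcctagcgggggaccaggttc
Cers2 promoter: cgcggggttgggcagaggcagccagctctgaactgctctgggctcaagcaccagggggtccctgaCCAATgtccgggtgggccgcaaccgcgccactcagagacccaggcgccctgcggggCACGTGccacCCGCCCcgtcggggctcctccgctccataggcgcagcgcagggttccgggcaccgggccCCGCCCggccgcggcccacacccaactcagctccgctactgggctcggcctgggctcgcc
Cers6 promoter: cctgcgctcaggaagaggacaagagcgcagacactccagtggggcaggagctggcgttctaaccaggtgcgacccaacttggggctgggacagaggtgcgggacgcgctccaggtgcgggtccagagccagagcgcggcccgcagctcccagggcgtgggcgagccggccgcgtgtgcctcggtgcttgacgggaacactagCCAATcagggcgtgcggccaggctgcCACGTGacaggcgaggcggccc
Sptlc2 promoter: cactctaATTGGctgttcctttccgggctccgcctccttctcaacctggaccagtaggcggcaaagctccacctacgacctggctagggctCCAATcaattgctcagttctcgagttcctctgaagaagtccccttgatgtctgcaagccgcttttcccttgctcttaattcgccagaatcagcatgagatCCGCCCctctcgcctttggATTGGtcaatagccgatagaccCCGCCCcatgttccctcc
Sptssa promoter: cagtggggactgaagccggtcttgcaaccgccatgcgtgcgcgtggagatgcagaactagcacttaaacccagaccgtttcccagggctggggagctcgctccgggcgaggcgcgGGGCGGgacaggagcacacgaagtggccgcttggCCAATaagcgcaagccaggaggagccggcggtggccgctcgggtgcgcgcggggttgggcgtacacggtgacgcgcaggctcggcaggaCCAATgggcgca

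RefSeq promoters were matched for 9 of the 10 genes, all but Ptdss1, and Cers2 had 2 starts, which gave 10 promoters. The E-box was in 3 of the 10, those of Degs1, Cers2 (first start) and Cers6, against 6.02% of all 32851 promoters of this length. It began at position -43 in Degs1, -129 in Cers2 and -22 in Cers6, counted back from the last base before the start. The CCAAT box was in 5 of the 10 promoters (33.8% of all) and the GC box in 6 (32.7% of all). The letters of the E-box and of the GC box each hold a CG. The promoters of Cers2 (first start), Cers6 and Degs1 had a GC content of 74.8%, 70.4% and 69.6%, with 24, 23 and 19 CG pairs. The second Cers2 start had 54% and 5. Medians over all promoters were 52.4% and 6. The part of base composition in these motif counts was not tested. In the printed windows the CCAAT box was in every promoter but that of Degs1. No promoter of the 10 held TATAAA (12.4% of all), the sterol response element TCACNCCAC (1.05%), TGATGNAA, the letters of the C/EBP-ATF response element (3.45%), or the cAMP response element TGACGTCA (1.55%). In these windows no match overlapped a match to another motif. The E-box was thus present in genes that were lower (Degs1, Cers2) and in one that was higher (Cers6) in the Phgdh fl/fl Cx3cr1-Cre TEMs, and the letters are a description of the window only.

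The reads counted on genes were between 38219563 and 47027420 per sample, of which the 10 genes took 0.124% to 0.131%. Their recovered reads were between 581 and 16130 per gene and sample, and their coefficient of variation between replicates was 0.526% to 6.44%. Phgdh, the targeted gene, had normalized counts (reads divided by the size factor of the sample) of 119, 129, 117 and 105 in the Phgdh fl/fl TEMs and of 32.6, 35.3, 14.2 and 26.3 in the Phgdh fl/fl Cx3cr1-Cre TEMs, a decrease of 76.9% in the mean (limma, adjusted p = 5.09e-08). All 8 macrophage markers examined were measured, and their summed normalized counts were 987727 to 1076550 in the Phgdh fl/fl and 974279 to 1049670 in the Phgdh fl/fl Cx3cr1-Cre TEMs. Of these markers Fcgr1 (log2 fold change -0.40), Cx3cr1 (-0.70), Itgam (-0.19) and Adgre1 (-0.08) fell and the other 4 were not called. Cx3cr1 is also the locus that carries Cre, and the part of that allele in its fall was not tested. Summed markers of other cells were low in both genotypes, and some markers had no values. The sums were 17.2 to 37.9 for T cells (1 of 5 markers had values) and 43.7 to 91.5 for dendritic cells (4 of 5). They were 19.7 to 49.6 for fibroblasts (4 of 5) and 1.03 to 5.08 for mesothelioma cells (1 of 5). B cell markers (2 of 5 had values) summed to 197 to 253 in the Phgdh fl/fl TEMs and to 131 to 167 in the Phgdh fl/fl Cx3cr1-Cre TEMs. The neutrophil marker S100a8 (1 of 6 had values) was at 467 to 575 and at 576 to 631. The part of these marker differences in the values below was not tested. In bulk RNA, fewer cells of a type and less RNA per cell cannot be told apart.

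Of the 10 genes, 6 passed the test in the comparison of the genotypes, Degs1, Cers2, Sptssa and Sptlc1 as lower and Cers6 and Sptlc2 as higher in the Phgdh fl/fl Cx3cr1-Cre TEMs (limma, two-sided, adjusted p under 0.05 over 13629 genes). Every difference was small, with the largest a decrease of 9.16% in Degs1. In the same test 41.0% of all genes were called, 20.3% as lower and 20.8% as higher, so the 4 lower and 2 higher of 10 stand beside a background in which differences were common. Groups did not overlap for 5 of the 10 genes, against 36.7% of all genes tested. The median log2 fold change of the 10 genes was -0.04, against -0.0018 over all genes, and their median absolute log2 fold change was 0.09 against 0.12. None of the 10 had an absolute log2 fold change over 1.5.

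**Figure D1:**
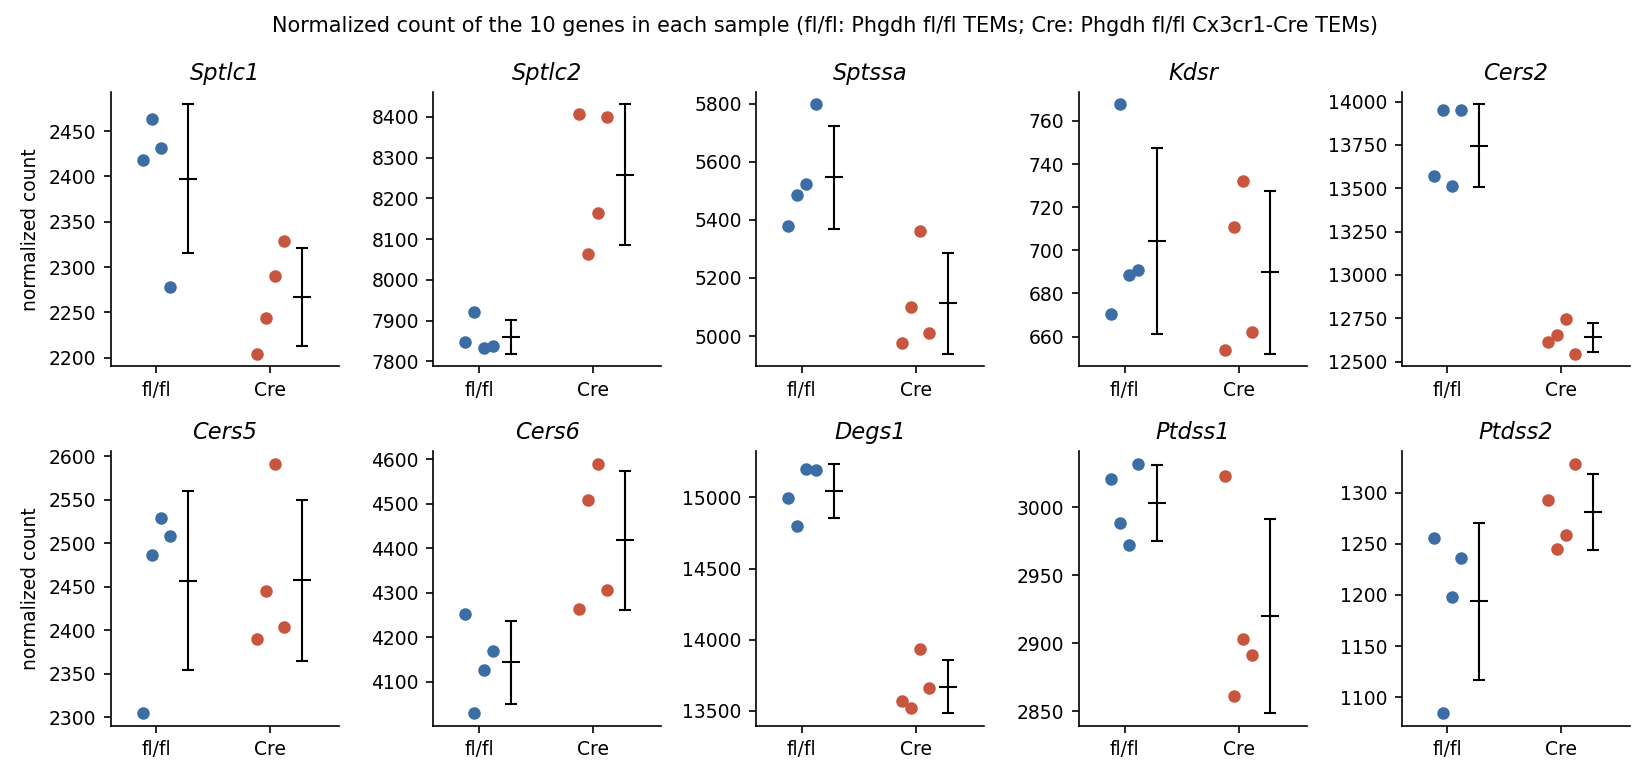
Normalized count (y axis, a separate scale for each gene that does not start at 0) of the 10 genes in each of the 4 Phgdh fl/fl TEM samples (blue) and the 4 Phgdh fl/fl Cx3cr1-Cre TEM samples (red), with the mean and SD of each genotype in black. Every red point lies below every blue one for Degs1, Cers2 and Sptssa and above every blue one for Sptlc2 and Cers6, and the genotypes overlap for the other 5 genes.

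Among the subunits of SPT, Sptlc1 (ENSMUSG00000021468, chr13:53332748-53377397) encodes the non-catalytic long chain. Its normalized counts were 2418, 2463, 2431 and 2278 in the Phgdh fl/fl TEMs and 2204, 2244, 2290.4 and 2328 in the Phgdh fl/fl Cx3cr1-Cre TEMs. The genotypes overlapped, since replicate 4 of the controls lay below the highest pair of Cre samples. The means were 2398 ± 81.8 and 2267 ± 54.1 (SD, n = 4 each). The log2 fold change of -0.08 (SE 0.032) passed the threshold in the fit over all genes (limma, adjusted p = 0.0464) but not in the exact two-sided permutation test of the single gene (p = 0.0857). The call was lost in 6 of the 8 fits that left out 1 sample (those without control replicate 1, 2 or 3 or Cre replicate 1, 2 or 3), where its adjusted p in limma reached 0.133.

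Sptlc2 (ENSMUSG00000021036, chr12:87305058-87388355) encodes the catalytic chain and was higher. Its normalized counts were 7846, 7921, 7833 and 7837 in the Phgdh fl/fl TEMs and 8406, 8063, 8165 and 8399.9 in the Phgdh fl/fl Cx3cr1-Cre TEMs. The controls lay close together, with a coefficient of variation of 0.526%, and all were below the Cre samples. The mean rose from 7859.6 ± 41.3 to 8258 ± 172 (SD, n = 4 each), which is 5.08% higher, with a log2 fold change of 0.07 (SE 0.023; limma, adjusted p = 0.0151). Without replicate 1 or replicate 4 of the Phgdh fl/fl Cx3cr1-Cre TEMs the adjusted p of Sptlc2 in limma was 0.0529 and 0.0565.

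Sptssa (ENSMUSG00000044408, chr12:54645392-54656573), whose product is a small activating subunit, was lower. Its normalized counts of 5380.0, 5486, 5524 and 5798 in the Phgdh fl/fl TEMs were all above the 4975, 5102, 5362 and 5012 of the Phgdh fl/fl Cx3cr1-Cre TEMs, although the closest pair of samples was only a little apart. The mean fell from 5547 ± 178 to 5113 ± 174 (SD, n = 4 each), with a log2 fold change of -0.12 (SE 0.029; limma, adjusted p = 0.00227). A microRNA gene, Mir1892, shares 80 exon bases with Sptssa on the same strand.

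Kdsr (ENSMUSG00000009905, chr1:106720459-106759727), the reductase that follows SPT, was the least abundant of the 10 genes per exon length and was not called. Its normalized counts were 670.3, 768, 688 and 691 in the Phgdh fl/fl TEMs and 654, 711, 732 and 662 in the Phgdh fl/fl Cx3cr1-Cre TEMs. Controls and Cre samples were interleaved. The log2 fold change was -0.03 with a 95% interval from -0.14 to 0.08 (limma, adjusted p = 0.689), so a difference of the size seen in Degs1 lay just inside the interval.

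The ceramide synthases of the list moved in different directions. Cers2 (ENSMUSG00000015714, chr3:95314791-95323599), the isozyme for very long acyl chains, had normalized counts of 13568, 13951, 13512 and 13949 in the Phgdh fl/fl TEMs and of 12612, 12656, 12744 and 12544 in the Phgdh fl/fl Cx3cr1-Cre TEMs. The gap between the genotypes was wider than the range within either of them. Its mean fell from 13745 ± 238 to 12639 ± 83.9 (SD, n = 4 each), a decrease of 8.05% and a log2 fold change of -0.12 (SE 0.021; limma, adjusted p = 9.30e-05). Cers2 lies 2.99 Mb from Phgdh on the same chromosome, where both genotypes carried the floxed alleles. On the opposite strand it shares 75 exon bases with Setdb1 and 144 with 6330562C20Rik. The library kit keeps the strand, and the strand setting of the counting was not given in the sources used here.

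Cers6 (ENSMUSG00000027035, chr2:68861441-69114282), an isozyme that prefers palmitoyl-CoA, was higher. Its normalized counts were 4252, 4029.5, 4126 and 4168 in the Phgdh fl/fl TEMs and 4264, 4509, 4590.0 and 4306 in the Phgdh fl/fl Cx3cr1-Cre TEMs. The groups did not overlap, but the highest control and the lowest Cre sample nearly met. The mean rose from 4144 ± 92.7 to 4418 ± 157 (SD, n = 4 each), an increase of 6.60% and a log2 fold change of 0.09 (SE 0.028; limma, adjusted p = 0.0131). Without replicate 2 of the Phgdh fl/fl TEMs or replicate 3 of the Phgdh fl/fl Cx3cr1-Cre TEMs the adjusted p of Cers6 in limma was 0.0511 and 0.0620.

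Cers5 (ENSMUSG00000023021, chr15:99734881-99772885), the other palmitoyl-CoA isozyme, had equal means. Its normalized counts were 2305, 2486, 2528 and 2508 in the Phgdh fl/fl TEMs and 2389.8, 2445, 2591 and 2403 in the Phgdh fl/fl Cx3cr1-Cre TEMs. Both means were 2457, with an SD of 103 and 92.4 (n = 4 each), and the log2 fold change of 0.00 had a 95% interval from -0.07 to 0.07 (limma, adjusted p = 0.992). The interval covers no change of the size seen in Cers2.

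Degs1 (ENSMUSG00000038633, chr1:182275772-182282804), the desaturase that completes ceramide, fell the most of the 10 genes and was also the most abundant. Its normalized counts were 14996, 14798, 15199.5 and 15193 in the Phgdh fl/fl TEMs and 13567, 13516, 13934 and 13658 in the Phgdh fl/fl Cx3cr1-Cre TEMs. The lowest control sample was well above the highest Cre sample. The mean fell from 15047 ± 191 to 13668 ± 186 (SD, n = 4 each), with a log2 fold change of -0.14 (SE 0.021; limma, adjusted p = 1.83e-05).

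Of the phosphatidylserine synthases neither passed the test. Ptdss1 (ENSMUSG00000021518, chr13:66932830-66998401) had normalized counts of 3020.5, 2989, 2972 and 3032 in the Phgdh fl/fl TEMs and of 3023, 2861, 2903 and 2891 in the Phgdh fl/fl Cx3cr1-Cre TEMs. Cre replicate 1 lay among the controls and the other 3 below them. The log2 fold change of Ptdss1 was -0.04, with a 95% interval from -0.10 to 0.02 (limma, adjusted p = 0.247), and 229 exon bases are shared with Mterf3 on the opposite strand.

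Ptdss2 (ENSMUSG00000025495, chr7:141122382-141157606) had normalized counts of 1256, 1084, 1198 and 1236 in the Phgdh fl/fl TEMs and of 1293, 1245, 1259 and 1328 in the Phgdh fl/fl Cx3cr1-Cre TEMs. Control replicate 1 alone reached into the range of the Cre samples. The log2 fold change of Ptdss2 was 0.10 with a 95% interval from 0.01 to 0.19, and the adjusted p of 0.0628 (limma) missed the threshold. It passed without control replicate 1 (adjusted p = 0.0213) or control replicate 4 (0.0499), and with counts scaled to the total reads of each sample (0.0333).

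The genotype difference of all genes moved with exon length, and so did that of these 10. The median log2 fold change was -0.07 for genes with under 2 kb of exon, -0.04 for 2 to 4 kb, 0.00 for 4 to 6 kb, 0.03 for 6 to 8 kb, 0.06 for 8 to 10 kb and 0.10 for 10 kb and over. The share of genes called higher was 8.06% in the shortest and 49.5% in the longest class. The 4 genes called lower have 1.52 kb (Sptssa), 2.59 kb (Degs1), 3.56 kb (Sptlc1) and 3.68 kb (Cers2) of exon, while the 2 called higher have 8.12 kb (Sptlc2) and 8.88 kb (Cers6). In the class of 8 to 10 kb, to which Sptlc2 and Cers6 belong with Kdsr (8.15 kb), 37.4% of all genes were called higher. Kdsr lay below the median of that class, with a log2 fold change of -0.03.

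**Figure D2:**
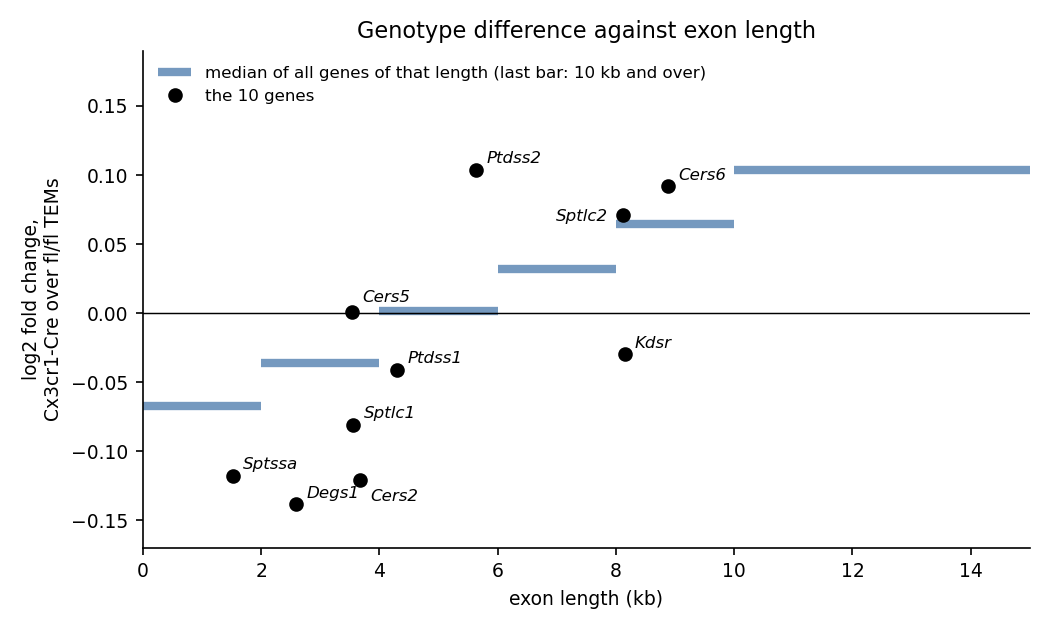
Log2 fold change of the Phgdh fl/fl Cx3cr1-Cre over the Phgdh fl/fl TEMs (y axis) against exon length in kb (x axis). Black points are the 10 genes and blue bars the median of all genes in that range of length, which runs from -0.07 for the shortest to 0.10 for the longest genes, with Sptlc2 and Cers6 near the bar of their own length and Degs1, Cers2 and Sptssa below theirs.

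When the trend on exon length and GC content was taken off each sample, a fit added after the values were seen, neither higher call remained. Sptlc2 then had a log2 fold change of -0.01 (limma, adjusted p = 0.782) and Cers6 of 0.00 (adjusted p = 0.979). The 4 lower genes stayed called, Degs1 at -0.13 (adjusted p = 2.73e-05), Cers2 at -0.11 (adjusted p = 7.10e-05), Sptssa at -0.09 (adjusted p = 0.0145) and Sptlc1 at -0.08 (adjusted p = 0.0414). Kdsr moved to -0.11 without passing the test (adjusted p = 0.0968). Over all genes the share of calls that were higher was 50.6% in the values as deposited and 39.2% with the trend taken off. Lower calls over all genes numbered 2764 of 13629 in the values as deposited and 3366 of 13626 with the trend taken off. The median log2 fold change over all genes was -0.0018 and -0.0216 in these fits. The 4 lower calls that stayed thus stand beside a background that itself moved lower. The cause of the trend was not tested.

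**Figure D3:**
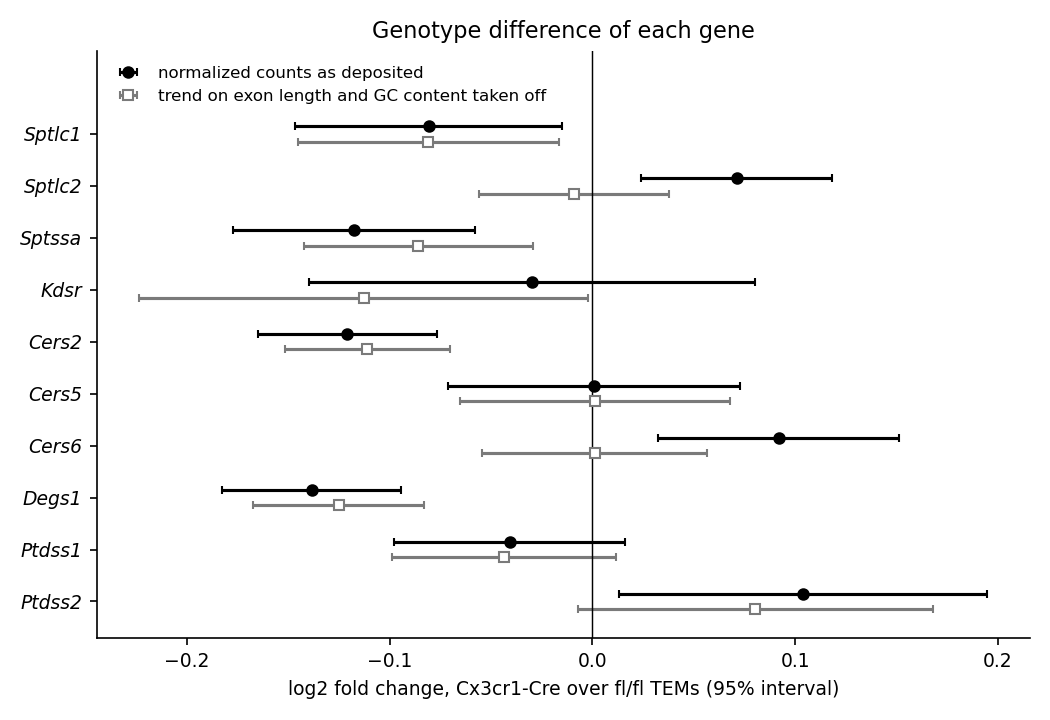
Log2 fold change of each gene (x axis, Phgdh fl/fl Cx3cr1-Cre over Phgdh fl/fl TEMs) with its 95% interval. Black circles are the normalized counts as deposited and grey open squares the fit with the trend on exon length and GC content taken off; the intervals of Degs1, Cers2, Sptssa and Sptlc1 stay below 0 in both, and those of Sptlc2 and Cers6 include 0 in the second.

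Ratios of 2 genes within a sample do not depend on the scaling between samples, and 5 were compared. Of all single genes tested, 36.7% did not overlap between the genotypes. The same share over all pairs of genes was not computed, so how common such a separation of ratios is remains unknown here. Cers6 relative to Cers2 was 0.313, 0.289, 0.305 and 0.299 in the Phgdh fl/fl TEMs and 0.338, 0.356, 0.360 and 0.343 in the Phgdh fl/fl Cx3cr1-Cre TEMs. All 4 Cre samples were above all controls, with means of 0.302 ± 0.0104 and 0.350 ± 0.0105 (SD, n = 4 each). This difference had an exact two-sided permutation p of 0.0286, the smallest that 4 against 4 allows, and 0.0357 after Benjamini-Hochberg adjustment over the 5 ratios. Cers5 relative to Cers2 rose in the same way, from 0.179 ± 0.00709 to 0.194 ± 0.00614 with the same exact p, although Cers5 itself was level.

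The ratio Ptdss2 to Ptdss1 was 0.416, 0.363, 0.403 and 0.408 in the Phgdh fl/fl TEMs and 0.428, 0.435, 0.434 and 0.460 in the Phgdh fl/fl Cx3cr1-Cre TEMs. The Cre samples were again all above the controls (exact permutation p = 0.0286, adjusted 0.0357), where neither synthase had passed on its own. With the trend on exon length and GC content taken off, Cers6 to Cers2, Cers5 to Cers2 and Ptdss2 to Ptdss1 kept that order in every sample (exact permutation p = 0.0286, adjusted 0.0476). The log2 difference of Cers6 to Cers2 was smaller there, 0.11 against 0.21, while that of Cers5 to Cers2 was 0.11 against 0.12 and that of Ptdss2 to Ptdss1 0.12 against 0.14.

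Within SPT, the ratio Sptlc2 to Sptlc1 was 3.24, 3.22, 3.22 and 3.44 in the Phgdh fl/fl TEMs and 3.81, 3.59, 3.56 and 3.61 in the Phgdh fl/fl Cx3cr1-Cre TEMs. The means were 3.28 ± 0.107 and 3.64 ± 0.114 (SD, n = 4 each; exact permutation p = 0.0286, adjusted 0.0357). With the length and GC trend taken off, the groups overlapped and the log2 difference in this ratio fell from 0.15 to 0.07 (exact permutation p = 0.114, adjusted 0.143). Sptssa relative to Sptlc1 was 2.32 ± 0.153 and 2.26 ± 0.0779, with overlapping groups (exact permutation p = 0.629).

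**Figure D4:**
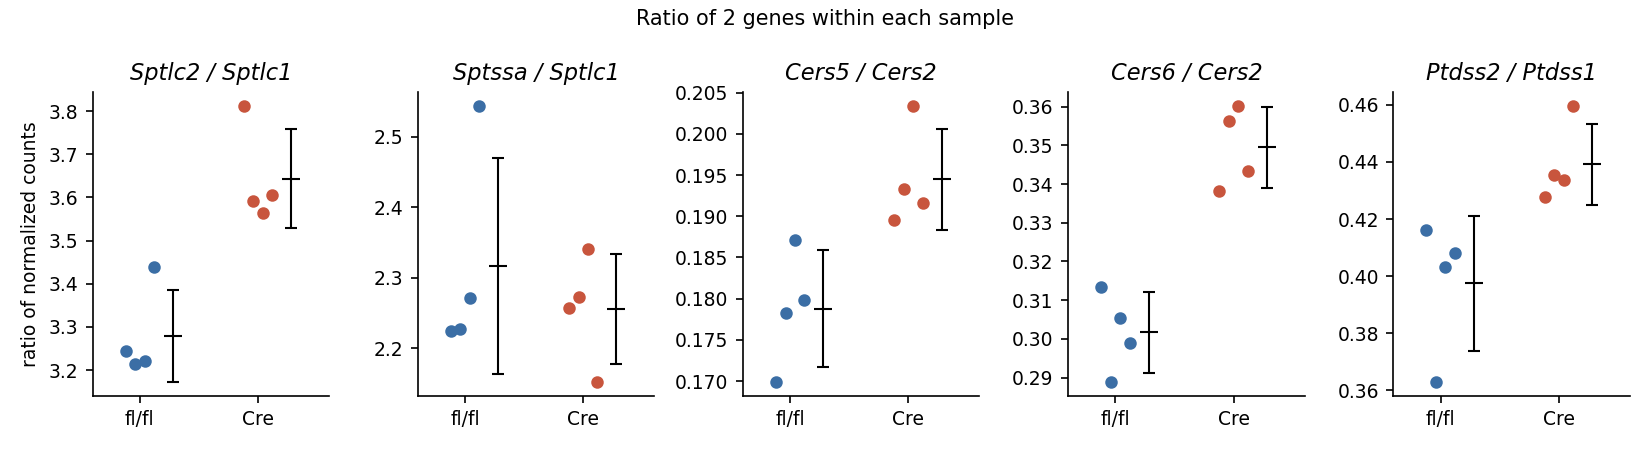
Ratio of the normalized counts of 2 genes within each sample (y axis, a separate scale for each ratio that does not start at 0), for the 4 Phgdh fl/fl TEM samples (blue) and the 4 Phgdh fl/fl Cx3cr1-Cre TEM samples (red), with the mean and SD of each genotype in black. The red points are above all blue ones for Sptlc2/Sptlc1, Cers5/Cers2, Cers6/Cers2 and Ptdss2/Ptdss1 and overlap them for Sptssa/Sptlc1.

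Levels were compared between genes as normalized counts per kb of exon. The length counts all annotated exons of a gene together, not those of the transcripts expressed here, so the levels depend on the annotation. In the Phgdh fl/fl TEMs Degs1 was highest at 5807 ± 73.6, followed by Cers2 at 3739 ± 64.7 and Sptssa at 3654 ± 117, which overlapped one another. Sptlc2 was next at 969 ± 5.09. Ptdss1 at 699 ± 6.48, Cers5 at 694 ± 29.1 and Sptlc1 at 674 ± 23.0 were not separate from their neighbours. Cers6 at 467 ± 10.4, Ptdss2 at 212 ± 13.6 and Kdsr at 86.4 ± 5.30 (SD, n = 4 each) came last and did not overlap. The order in the Phgdh fl/fl Cx3cr1-Cre TEMs differed only in that Cers5 (694 ± 26.1) stood before Ptdss1 (679.97 ± 16.6), a pair that overlapped in both genotypes.

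Per kb of exon, Cers2 made up most of the ceramide synthase signal of the 4 isozymes that passed the filter. The annotated lengths differ, with 3.68 kb for Cers2, 3.54 kb for Cers5, 8.88 kb for Cers6 and 12.3 kb for Cers4, and the shares depend on them. Its share was 75.7% ± 0.387 in the Phgdh fl/fl and 73.9% ± 0.555 in the Phgdh fl/fl Cx3cr1-Cre TEMs. The share of Cers6 was 9.45% ± 0.314 and 10.7% ± 0.246, and that of Cers5 was 14.0% ± 0.502 and 14.9% ± 0.360. Cers4 was the rarest at 0.820% ± 0.0592 and 0.554% ± 0.0117 (SD, n = 4 each). None of these shares overlapped between the genotypes (exact permutation p = 0.0286 for each, the smallest possible). The shares sum to the whole and are not independent. They restate the counts of the single genes, and 36.7% of all genes tested did not overlap either.

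Around the 10 genes, 78 other genes of sphingolipid and phospholipid metabolism were listed, of which 70 were in the table and 64 were tested. Of these 32 (50%) were called, 8 as lower and 24 as higher, in the comparison in which 41.0% of all genes were called. With the trend on exon length and GC content taken off, 31 of the 64 were called, 14 as lower and 17 as higher. Over all genes that fit called 5534 of 13626, 3366 as lower and 2168 as higher. The counts of each list below stand beside these backgrounds.

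In the rest of the de novo ceramide route, 2 of the 4 genes tested were lower and none was higher, with a median log2 fold change of -0.13. Cers4, a further ceramide synthase, had normalized counts of 531, 491, 449.7 and 516 in the Phgdh fl/fl TEMs and of 317, 311, 317 and 320.0 in the Phgdh fl/fl Cx3cr1-Cre TEMs. It was lower in every Cre sample, by 36.4% in the mean and with a log2 fold change of -0.65 (SE 0.062; limma, adjusted p = 3.49e-08), a larger difference than in any of the 10 genes. Ormdl2, whose product belongs to the ORMDL proteins that restrain SPT, fell with a log2 fold change of -0.19 (limma, adjusted p = 0.000266). Ormdl1 (-0.06) and Ormdl3 (0.01) were not called. Cers3 and Degs2 were below the filter, and Sptlc3, Sptssb and Cers1 were not among the 18635 genes with values.

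Genes that use ceramide were called more often than not, 2 lower and 6 higher of 10, where 41.0% of all genes were called. Their median log2 fold change was 0.11. Samd8, which encodes the ceramide phosphoethanolamine synthase SMSr, had normalized counts of 4801, 4989, 4786 and 4755 in the Phgdh fl/fl TEMs and of 7379.9, 7356, 7221 and 7277 in the Phgdh fl/fl Cx3cr1-Cre TEMs, an increase of 51.2% (log2 fold change 0.60, SE 0.024; limma, adjusted p = 8.03e-14). Cert1, the protein that carries ceramide from the endoplasmic reticulum to the Golgi, was higher with a log2 fold change of 0.24 (limma, adjusted p = 9.04e-07). St3gal5, the sialyltransferase that makes the ganglioside GM3, was lower with a log2 fold change of -0.26 (limma, adjusted p = 4.46e-07). With the length and GC trend taken off, 3 genes of the list were lower and 6 higher, and its median was 0.08. Samd8, Cert1 and St3gal5 stayed called, at 0.52 for Samd8, 0.16 for Cert1 and -0.23 for St3gal5.

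Of the 13 genes tested for the breakdown of ceramide and sphingomyelin, none was called lower and 6 were called higher, with a median log2 fold change of 0.14. Smpdl3a rose from 18653 ± 532 to 21714 ± 192 (log2 fold change 0.22, limma, adjusted p = 1.17e-07). It encodes a phosphodiesterase listed here for its relation to acid sphingomyelinase, and whether it acts on sphingomyelin was not examined. Psap, the precursor of the saposins that assist lysosomal hydrolases, rose from 418558 ± 6855 to 467863 ± 7223 (log2 fold change 0.16; limma, adjusted p = 4.05e-05). Galc, the lysosomal galactosylceramidase, rose from 3893 ± 71.8 to 4278 ± 86.2 (SD, n = 4 each; log2 fold change 0.14; limma, adjusted p = 0.000218). With the length and GC trend taken off, 1 gene of this list was lower and 5 were higher, Smpdl3a (0.24) and Psap (0.19) among them. The median of the list was then 0.03, and the log2 fold change of Galc was 0.01 (adjusted p = 0.840).

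Of 8 genes tested for sphingosine 1-phosphate, 2 were lower and 2 higher. Sgpl1, the lyase that ends the sphingolipid route, was higher with a log2 fold change of 0.14 (limma, adjusted p = 2.34e-05). The receptor gene S1pr1 was lower at -0.12 (adjusted p = 0.00368) and the receptor gene S1pr2 higher at 0.08 (adjusted p = 0.00945). The median of the list was 0.11, to which genes of very low counts such as Sphk1 and S1pr4 contribute. With the trend taken off, 3 genes were lower and 1 was higher, and the median was 0.06. S1pr2 was then at 0.02 and no longer called, Sgpl1 (0.10) and S1pr1 (-0.10) were called, and Sgpp1, a sphingosine 1-phosphate phosphatase, moved from -0.06 (limma, adjusted p = 0.0750) to -0.11 (adjusted p = 0.00245).

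For the use and movement of phosphatidylserine, none of 12 genes was called lower and 4 were called higher, with a median log2 fold change of 0.04. Atp11b and Atp11a, flippases of the plasma and inner membranes, had log2 fold changes of 0.16 (limma, adjusted p = 0.000245) and 0.14 (adjusted p = 0.00345), and Osbpl8, which exchanges phosphatidylserine between the endoplasmic reticulum and the plasma membrane, of 0.09 (adjusted p = 0.00513). These genes have 9.18 kb (Atp11b), 11.2 kb (Atp11a) and 9.40 kb (Osbpl8) of exon. The genotypes overlapped for Atp11a (exact two-sided permutation p = 0.0857). With the length and GC trend taken off, 2 genes of the list were called lower and 1 higher, its median was -0.03, and of Atp11a, Atp11b and Osbpl8 only Atp11b was called, at 0.07. Pisd, which turns phosphatidylserine into phosphatidylethanolamine in mitochondria, was not called (-0.02).

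In the synthesis of phosphatidylethanolamine and phosphatidylcholine, the substrates of PTDSS2 and PTDSS1, none of 10 genes was called lower and 4 were called higher, with a median log2 fold change of 0.04. Pcyt1a, the rate-limiting enzyme of phosphatidylcholine synthesis, rose from 4771 ± 85.6 to 6009 ± 68.3 (SD, n = 4 each), with a log2 fold change of 0.33 (limma, adjusted p = 4.71e-10). Cept1, which makes both phospholipids, was higher at 0.14 (adjusted p = 5.53e-05), and the choline kinase Chka at 0.20 (adjusted p = 0.000498). With the trend taken off, 1 gene was lower and 2 were higher and the median was -0.04, with Pcyt1a at 0.27 and Cept1 at 0.15, and Chka at 0.10 missed the threshold (adjusted p = 0.0544).

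For phosphatidylinositol and cardiolipin, which use no serine, 2 of 7 genes were lower and 2 higher. Cds2, a CDP-diacylglycerol synthase, rose from 9372 ± 384 to 11973 ± 104 (SD, n = 4 each), with a log2 fold change of 0.35 (limma, adjusted p = 7.43e-10). The mitochondrial genes Tamm41, at -0.33 (adjusted p = 0.00178), and Ptpmt1, at -0.17 (adjusted p = 0.00332), were lower. The genotypes overlapped for Ptpmt1 (exact two-sided permutation p = 0.0571). Cds2, Tamm41 and Ptpmt1 stayed called with the trend taken off, at 0.29, -0.35 and -0.17. Samd8, Cert1, Pcyt1a, Cds2 and Cers4 all had a larger absolute log2 fold change than any of the 10 genes, whose largest was 0.14.

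**Figure D5:**
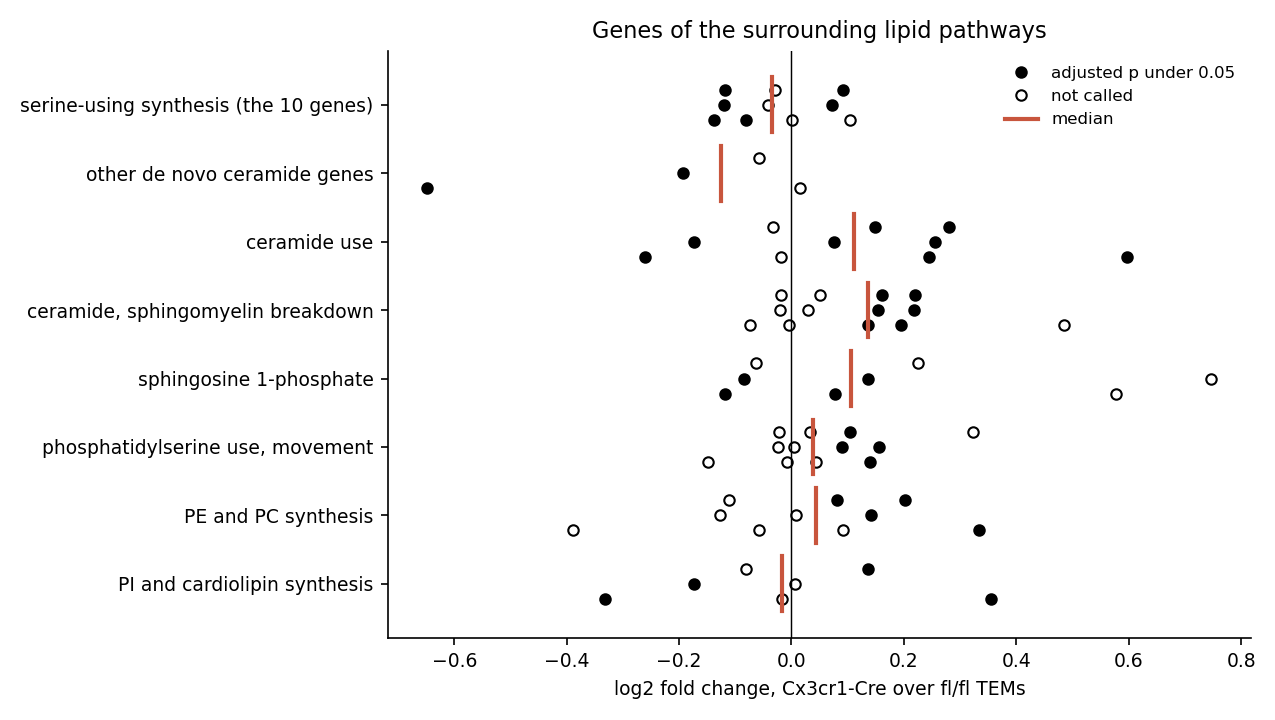
Log2 fold change (x axis, Phgdh fl/fl Cx3cr1-Cre over Phgdh fl/fl TEMs) of every tested gene of 8 groups (y axis; PE, PC and PI stand for phosphatidylethanolamine, phosphatidylcholine and phosphatidylinositol). Filled points were called (limma, adjusted p under 0.05), open points were not, and the red bar is the median of the group; the 10 genes lie between -0.14 and 0.10, while Cers4 in the second row is at -0.65 and Samd8 in the third at 0.60.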

How the data were processed

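RNA was sequenced from 4 Phgdh fl/fl and 4 Phgdh fl/fl Cx3cr1-Cre TEM samples with a strand-keeping kit. The authors mapped single-end reads to mm10 with TopHat2, counted them per gene with HTSeq 0.6 and used DESeq2. The values the authors deposited for each sample are a signal, the read count of a gene over a size factor, where the methods name FPKM, and the mean per gene is on that scale too. The deposited table further holds a log2 fold change and its standard error, a Wald score, a p-value and an adjusted p-value from the authors' own comparison, none of which were used here.

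Whole reads were recovered for 100% of the 144353 values above 0 (tolerance 0.001). Genes averaging a normalized count of 10 or more were compared on log2(normalized count + 1) with limma 3.58.1 (lmFit, eBayes with trend, two-sided, Benjamini-Hochberg over 13629 genes, no covariate) in R 4.3.3. Fold changes on this scale understate changes of low genes. Single genes and ratios were tested by exact permutation over 70 labelings (Python 3.11.15). Alternatives were edgeR 4.0.16 and DESeq2 1.42.0 on the recovered reads (5608 and 5066 genes called), a pseudocount of 0.1, other filters and scalings, eBayes without trend, a replicate block and leaving out each sample. The fits with splines on exon length and GC content (13626 genes) were added after seeing the data. On simulated counts, limma recovered 95% of genes changed 1.25-fold and 100% of those changed 1.5-fold among 13636 genes tested, with 4 unchanged genes called. The changed genes were drawn from those of higher counts, all genes had the same fixed spread, and no length or GC trend was simulated. Changes as small as those of the 10 genes (at most 9.16%) were not simulated, so the recovery does not cover them. Positions and lengths came from GENCODE M21 (GRCm38, the build of mm10), where 18629 of 18635 genes were found, and 3596 of 3602 missing symbols were filled from a table of gene names. Promoters came from RefSeq (GRCm38.p6). Same-genotype pairs of samples differed by more than sampling noise (chi-square per gene 1.79 to 6.20; 21.0 to 35.6 between genotypes), so none was taken for a copy of another library. This says nothing of whether samples came from separate animals. The named genes are the 10 genes and, from each other list, up to 3 called genes with the lowest adjusted p, beside genes singled out after their values were seen (Ormdl1, Ormdl3, Pisd, Sphk1, S1pr4, Sgpp1, Cers3, Degs2). The genes, lists and tests were chosen with earlier results of these data known. Both the number of reads of a gene and the spread between samples limit the precision of its value.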

Additional observations from a re-analysis of the deposited data

Results flagged for a closer look

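For the 10 genes, the 5 ratios and the named genes of the surrounding pathways, 72 groups of 4 samples were searched for a sample far from the other 3 (the gap to the nearest of them over the range, by Dixon's 95% limit), and 6 were found where chance gives about 3.6. Sptlc2 in replicate 2 of the Phgdh fl/fl TEMs had a normalized count of 7921, above the 7833 to 7846 of the others. In replicate 4 of the Phgdh fl/fl TEMs the ratio Sptlc2 to Sptlc1 was 3.44, against 3.22 to 3.24, and the ratio Sptssa to Sptlc1 was 2.54, against 2.22 to 2.27, both in the sample with the lowest Sptlc1 of its genotype. Sgpl1 in replicate 1 of the Phgdh fl/fl TEMs was at 25854, against 24812 to 24876, and Atp11a in the same sample at 4128, against 3607 to 3645. Smpdl3a in replicate 1 of the Phgdh fl/fl Cx3cr1-Cre TEMs was at 21426, against 21789 to 21829. The cause of these values was not tested.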

How the results depend on the processing

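Degs1, Cers2 and Sptssa were called lower under all 9 other settings (pseudocount, filters, scalings, moderation, edgeR, DESeq2 and block), all 8 fits without 1 sample and the 3 fits added after seeing the data. Sptlc2 was called under 9 of those 9 settings and 6 of 8 fits without 1 sample, Cers6 under 8 and 6, Sptlc1 under 4 and 2, and Ptdss2, not called in the values reported, under 2 and 2. The number of the 10 genes called higher was 1 with eBayes without trend and 0 with the exon length, the GC or both trends taken off, and between 1 and 3 when 1 sample was left out (4 to 7 called in all, 3 to 4 lower). Sptlc2 was at -0.0092 with both trends off and -4.39e-05 with the length trend off, below 0 in both. Cers5 changed sign under quantile normalization (-0.0148) and with the GC trend off (-0.0179), without passing the test. Without 1 sample, Cers5 ranged from -0.0298 to 0.0147 and Kdsr from -0.0588 to 0.0123. The log2 difference in the ratio Sptlc2 to Sptlc1 was 0.0717 with both trends off and 0.0809 with the length trend off (exact permutation, adjusted p = 0.143 in both), and that of Sptssa to Sptlc1 was 0.0045 with the length trend off. Without 1 sample the log2 differences were 0.130 to 0.175 for Sptlc2/Sptlc1, -0.0558 to 0.00881 for Sptssa/Sptlc1, 0.0973 to 0.144 for Cers5/Cers2, 0.192 to 0.231 for Cers6/Cers2 and 0.102 to 0.167 for Ptdss2/Ptdss1. Over all genes, 4966 to 5917 were called without 1 sample. The causes were not tested.

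The replicate numbers are shared by the genotypes, but no source says what they share. Deviations of same-numbered samples correlated at 0.0628, 0.0977, 0.126 and 0.0776 over genes, and 5 of 8 samples correlated best with their own number. With a replicate block 5597 genes were called, Sptlc1 was not (limma, adjusted p = 0.0596) and Ptdss2 was (0.0389). An exact sign-flip permutation of the mean log2 difference in a ratio over the 4 pairs cannot go below p = 0.125.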
